A study of Homo sapiens with 9 samples.

Results

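Members of the Krüppel-like factor family, 8 genes in all, were followed on expression arrays of MDA-MB231 cells, an established human breast cancer line, after inhibition of MEK or of metalloproteinases. They are KLF2, KLF3, KLF4, KLF5, KLF6, KLF10, KLF11 and KLF13, taken as a named list and matched by gene symbol, which gave 8 of 18132 measured genes and 24 of the 44988 probe sets with 1 gene symbol. Every probe set was read, and the one with the highest mean over the arrays stands for its gene. There were 3 cultures with 3 µM PD325901, an inhibitor of MEK, the kinase that activates ERK. A further 2 received 10 µM BB94 (batimastat), a broad metalloproteinase inhibitor, and 4 control cultures received 0.1% DMSO. All 9 were parental cells in DMEM with 10% FBS, plated at 70% confluency and lysed after 24 h of treatment. The labels do not say if the inhibitor cultures carried as much DMSO as the controls. By the labels the cultures are biological replicates, all of this single line, so p-values measure the spread between these cultures.

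Krüppel-like factors are transcription factors that bind GC-rich and CACCC-containing DNA through C2H2 zinc fingers at their carboxyl end. Family members differ in the rest of the protein, so that some mainly activate transcription and others recruit repressor complexes. KLF2 and KLF4 are best known from endothelial cells, where the kinase ERK5 and MEF2 factors induce them, and KLF4 and KLF6 are also known as activators of the cell cycle inhibitor gene CDKN1A. KLF5 is a factor of proliferating epithelium, and growth factor signalling through ERK is a known inducer of it. KLF3 represses transcription through CtBP corepressors. KLF10, KLF11 and KLF13 recruit the SIN3 corepressor, and KLF10 and KLF11 were described as early genes induced by TGF-beta.

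Promoter windows of RefSeq (GRCh38.p14), each from 250 bases before to 50 bases after a transcription start, were read for 6 of the 8 genes, with 8 windows in all. No window was read for KLF3 or KLF10. The 5 windows shown are those of KLF5 and KLF11, which were called on the arrays, and that of KLF2, which holds a MEF2 consensus, the element through which ERK5 is known to act. Motifs were sought on both strands and may overlap. In the KLF5 and KLF11 windows capitals mark the GC box GGGCGG and the CACCC box, on either strand, and in the KLF2 window they mark the MEF2 consensus.
KLF2, chr19:16324576-16324875, plus strand: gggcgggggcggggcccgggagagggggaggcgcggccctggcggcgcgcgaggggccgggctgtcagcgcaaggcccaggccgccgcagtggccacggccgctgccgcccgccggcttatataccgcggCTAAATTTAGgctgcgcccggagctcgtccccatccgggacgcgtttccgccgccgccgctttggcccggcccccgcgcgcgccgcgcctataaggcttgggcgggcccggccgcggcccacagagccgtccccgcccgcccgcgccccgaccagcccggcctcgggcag
KLF5, chr13:73054726-73055025, plus strand: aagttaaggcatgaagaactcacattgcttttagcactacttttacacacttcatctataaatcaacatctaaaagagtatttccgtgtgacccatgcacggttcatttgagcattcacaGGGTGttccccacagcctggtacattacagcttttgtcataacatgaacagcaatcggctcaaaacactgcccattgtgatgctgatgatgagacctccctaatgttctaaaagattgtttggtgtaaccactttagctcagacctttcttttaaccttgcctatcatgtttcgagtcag
KLF5, chr13:73058755-73059054, plus strand: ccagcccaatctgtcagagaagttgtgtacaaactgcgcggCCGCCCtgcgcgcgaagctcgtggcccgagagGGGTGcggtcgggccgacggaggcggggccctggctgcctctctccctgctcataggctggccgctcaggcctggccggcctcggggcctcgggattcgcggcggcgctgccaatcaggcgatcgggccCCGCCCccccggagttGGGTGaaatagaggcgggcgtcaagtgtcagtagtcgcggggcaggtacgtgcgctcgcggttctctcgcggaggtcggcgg
KLF11, chr2:10043579-10043878, plus strand: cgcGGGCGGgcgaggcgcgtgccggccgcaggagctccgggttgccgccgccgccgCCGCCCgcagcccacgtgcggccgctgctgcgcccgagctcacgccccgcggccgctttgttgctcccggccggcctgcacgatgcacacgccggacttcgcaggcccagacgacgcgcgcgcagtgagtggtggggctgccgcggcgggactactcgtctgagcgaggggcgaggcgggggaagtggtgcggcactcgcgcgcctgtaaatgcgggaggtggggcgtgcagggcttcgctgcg
KLF11, chr2:10043971-10044270, plus strand: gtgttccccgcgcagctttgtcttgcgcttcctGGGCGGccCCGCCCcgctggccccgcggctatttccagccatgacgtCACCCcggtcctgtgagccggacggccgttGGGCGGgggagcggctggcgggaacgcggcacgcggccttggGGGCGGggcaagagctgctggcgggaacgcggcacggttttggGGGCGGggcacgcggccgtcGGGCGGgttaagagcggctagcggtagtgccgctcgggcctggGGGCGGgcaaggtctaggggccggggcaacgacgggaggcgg

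The KLF2 window held 1 MEF2 match, 120 bases before the start, and 6 GC boxes left in lower case. MEF2 matches occur in 2.99% of 35116 human windows of the same length. The upstream KLF5 window held 1 CACCC box and no GC box, and the downstream one held 2 of each. The upstream KLF11 window held 2 GC boxes, and the downstream one held 7 GC boxes, 1 CACCC box and 1 cyclic AMP response element, TGACGTCA, 176 bases before the start, which overlaps the CACCC box by 2 bases. GC boxes occur in 45% of all windows, CACCC boxes in 59.9% and TGACGTCA in 1.85%. The windows not shown, of KLF4, KLF6 and KLF13, held 4, 2 and 3 GC boxes, with 1 CACCC box for KLF13. None of the 8 windows held the AP-1 site TGANTCA, the FOXO site GTAAACA or a CArG box, which occur in 7.71%, 3.42% and 1.29% of all windows. A match describes the letters of a window and is no evidence of a bound factor.

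The arrays carried the profile of the line. Of 5 markers of MDA-MB231 cells (VIM, CD44, AXL, SPARC and CAV1), all 5 lay above background on every array, and of 5 genes expected to be low, ESR1, PGR, CDH1 and KRT5 lay below it on every array while EPCAM, at 9.24 to 9.68, lay above. Background was set per array at the highest of its 23 background probe sets, 6.02 to 6.50 on the log2 scale. Of 8 markers of leukocytes, endothelium and fibroblasts, 7 were measured and none passed background on any array. The controls were not alike, since 66.4% of all genes were higher in control replicates 1 and 2 than in replicates 3 and 4, with a median difference of 0.11. Among the 8 Krüppel-like factor genes 7 were higher in replicates 1 and 2, by 0.21 for KLF6 up to 0.42 for KLF2, and KLF5 differed by -0.24. The 3' minus 5' signal of ACTB, a measure of RNA integrity, was 4.15, 3.61 and 3.50 on the PD325901 arrays, 3.91 and 4.22 on the BB94 arrays and 3.89, 3.75, 3.46 and 2.96 in the controls. Its part in the results was not tested.

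**Figure D1:**
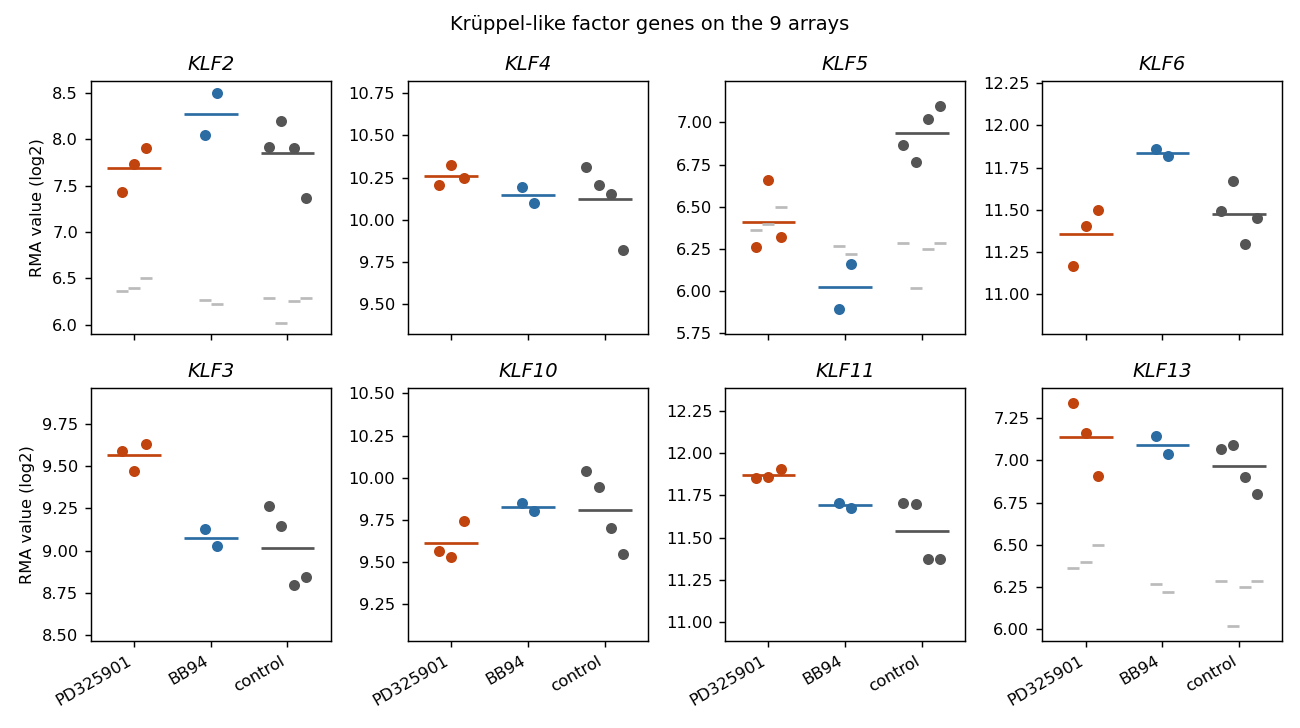
RMA values (log2, y axis) of the 8 Krüppel-like factor genes on each array, with PD325901 left (3 arrays), BB94 in the middle (2) and control right (4), horizontal bars at the group means and short grey dashes at an array's background level where it falls in the panel. KLF3 and KLF11 stand above all controls on the PD325901 arrays, KLF5 stands below all controls on the arrays of both inhibitors, and each panel has its own range.

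PD325901 was compared with control to ask which of these genes follow MEK activity. KLF3 and KLF11 rose under the MEK inhibitor, KLF5 fell, and the other 5 were not called. Differences of the called genes were modest, 1.46-fold for KLF3, 1.26-fold for KLF11 and, on group means, at least 1.35-fold for KLF5. Calls were made at an adjusted p under 0.05 in limma's moderated test over all genes, and this comparison called 35.1% of all genes, 22.8% higher and 12.3% lower. The 3 calls among 8 members lie near that share. The median difference was 0.01 over the members and 0.08 over all genes.

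KLF3, the CtBP-recruiting repressor, had log2 values of 9.59, 9.47 and 9.63 on the PD325901 arrays, against 9.27, 9.15, 8.80 and 8.85 in the controls. All 3 treated arrays lay above all 4 controls, and the controls fell into a higher and a lower pair. The means were 9.56 ± 0.08 (SD, n = 3) and 9.01 ± 0.23 (SD, n = 4), a difference of 0.55 on the log2 scale (SE 0.12, limma adjusted p = 0.00431). KLF3 kept its call in 19 of 20 alternatives. It was not called with arrays centred on their median over genes, where the difference was 0.30 (adjusted p = 0.0807, within 1.7e-04 to 0.0807 over the alternatives). The difference was 0.36 against control replicates 1 and 2 alone and 0.37 with the mean of its probe sets, both called. This centring moved the median of all genes from 0.08 to -0.17, a shift of -0.25 that all members share. Array signal is RNA per sample, and fewer cells with a transcript cannot be told apart from less of it per cell.

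KLF11, a SIN3-recruiting repressor known from TGF-beta responses, stood at 11.85, 11.86 and 11.90 under PD325901, against 11.71, 11.70, 11.37 and 11.37 in control. The treated arrays lay close together above every control, and control replicates 3 and 4 lay lowest. The means were 11.87 ± 0.03 (SD, n = 3) and 11.54 ± 0.19 (SD, n = 4), with a difference of 0.34 (SE 0.10, limma adjusted p = 0.0269). The call was lost in 9 of 20 alternatives, over which the adjusted p ran from 6.1e-04 to 0.578. It was lost without PD325901 replicate 1 (adjusted p = 0.0686), 2 (0.0736) or 3 (0.0865) and without control replicate 3 (0.0672) or 4 (0.0603). Against control replicates 1 and 2 alone the difference was 0.17 (adjusted p = 0.091), and with centred arrays it was 0.08 (adjusted p = 0.578).

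KLF5, the epithelial growth factor-responsive member, had values of 6.26, 6.66 and 6.32 on the PD325901 arrays, against 6.87, 6.76, 7.02 and 7.10 in control. Every treated array lay below every control, and only PD325901 replicate 2 was above the background of its array. The means were 6.41 ± 0.21 (SD, n = 3) and 6.94 ± 0.15 (SD, n = 4), and the fitted difference was -0.52 (SE 0.12, limma adjusted p = 0.00707). Because treated arrays reached background, the fall is a bound of at least 1.35-fold, computed from the higher of background and measured value on each treated array. With array weights the difference was -0.34 and was called. The call was lost against control replicates 1 and 2 alone, at -0.40 (adjusted p = 0.0522, within 8.1e-04 to 0.0522 over 20 alternatives).

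KLF10, the paralogue of KLF11, had 9.56, 9.53 and 9.74 under PD325901, against 10.04, 9.94, 9.70 and 9.55 in control. The groups overlapped, since the treated arrays lay level with control replicates 3 and 4 and below replicates 1 and 2. The difference of -0.19 (95% interval -0.46 to 0.07, limma adjusted p = 0.263) was not called. It was called lower in 3 of 20 alternatives, with array weights (-0.30, adjusted p = 0.0146), with centred arrays (-0.45, adjusted p = 0.0148) and against control replicates 1 and 2 alone (-0.38, adjusted p = 0.0116), within a range of 0.0116 to 0.925.

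The members tied to ERK5 in endothelium were not called. KLF2 stood at 7.44, 7.73 and 7.91 under PD325901, against 7.92, 8.20, 7.91 and 7.37 in control, with a difference of -0.16 (95% interval -0.59 to 0.27, limma adjusted p = 0.602). KLF4 stood at 10.20, 10.32 and 10.25, against 10.31, 10.20, 10.15 and 9.82 in control, with a difference of 0.14 (95% interval -0.12 to 0.39, adjusted p = 0.419). Both genes overlapped between the groups, and control replicate 4 was the lowest control for each. KLF6, an activator of CDKN1A, had 11.17, 11.41 and 11.50, against 11.49, 11.67, 11.30 and 11.45 in control. That difference was -0.12 (95% interval -0.36 to 0.12, adjusted p = 0.461) and was called lower with centred arrays alone among 20 alternatives (-0.37, adjusted p = 0.0382). KLF13, a SIN3-recruiting member, had 7.34, 7.16 and 6.91, against 7.07, 7.09, 6.90 and 6.80 in control, a difference of 0.17 (95% interval -0.08 to 0.43, adjusted p = 0.302). The intervals of these 4 genes leave room for changes in either direction.

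**Figure D2:**
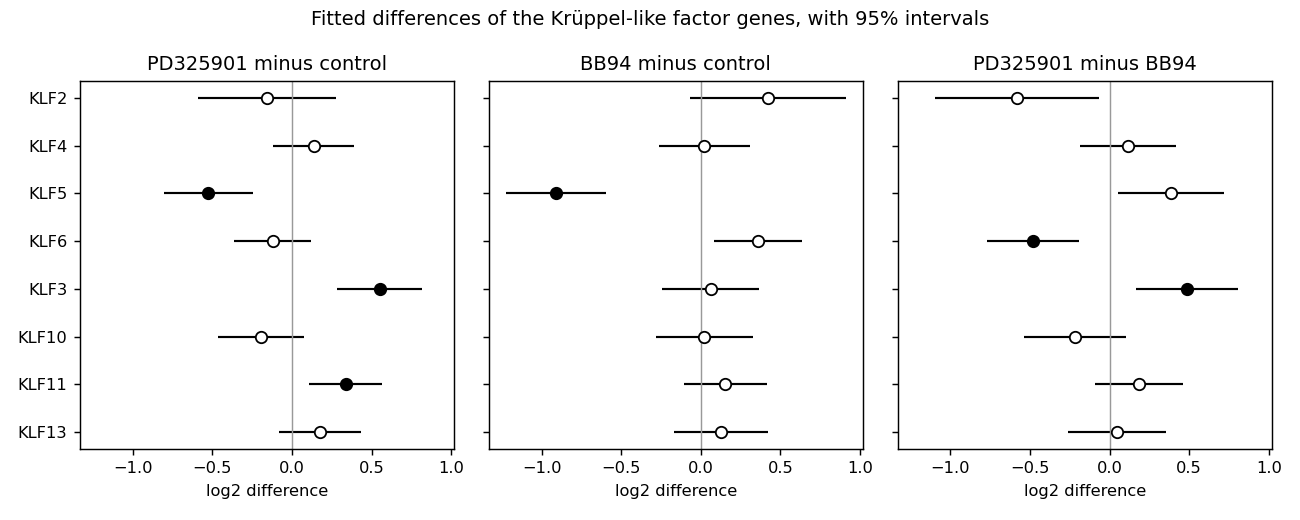
Fitted log2 differences (x axis) of the 8 Krüppel-like factor genes with 95% intervals, for PD325901 minus control, BB94 minus control and PD325901 minus BB94, with filled points for an adjusted p under 0.05 and open points otherwise. The filled points are KLF3, KLF11 and KLF5 on the left, KLF5 alone in the middle and KLF3 and KLF6 on the right.

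BB94 was compared with control to ask which members respond when metalloproteinases are blocked. KLF5 fell by at least 1.62-fold on group means and was the only called member, so 0 members were called higher and 1 lower. Over all genes 1.58% were called, 0.491% higher and 1.09% lower. At an unadjusted p under 0.05 there were 2 members, KLF5 and KLF6. The members' median difference was 0.09, beside -0.02 over all genes.

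KLF5 had 5.89 and 6.16 on the BB94 arrays, against 6.87, 6.76, 7.02 and 7.10 in control. Both treated arrays lay below background and below every control. The means were 6.03 ± 0.19 (SD, n = 2) and 6.94 ± 0.15 (SD, n = 4), with a fitted difference of -0.91 (SE 0.14, limma adjusted p = 0.00973). The call was lost without BB94 replicate 1 (-0.78, adjusted p = 0.134) or replicate 2 (-1.05, adjusted p = 0.0626), each of which leaves 1 array assumed to vary like the other groups. With the mean of the 3 probe sets the difference was -0.50 and was called. Over the 20 alternatives the adjusted p ran from 0.00751 to 0.134.

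KLF6 had 11.86 and 11.82 under BB94, against 11.49, 11.67, 11.30 and 11.45 in control. Both treated arrays lay above all controls, with a difference of 0.36 (95% interval 0.09 to 0.63), but the limma adjusted p was 0.275. Against control replicates 3 and 4 alone KLF6 was called, at 0.46 (adjusted p = 0.0495), and it was not called in the other 19 alternatives, which reached 0.803. KLF11 had 11.71 and 11.67, against 11.71, 11.70, 11.37 and 11.37 in control, a difference of 0.15 (adjusted p = 0.762). It too was called against control replicates 3 and 4 alone (0.32, adjusted p = 0.0423, within 0.0423 to 1 over the alternatives), and its BB94 arrays lay level with control replicates 1 and 2.

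KLF2 had 8.04 and 8.50 on the BB94 arrays, against 7.92, 8.20, 7.91 and 7.37 in control, and the difference of 0.42 (95% interval -0.06 to 0.91, limma adjusted p = 0.553) was not called. BB94 replicate 2 lay above all controls and replicate 1 below control replicate 2. KLF3 had 9.13 and 9.03 (difference 0.06, adjusted p = 0.953) and KLF4 had 10.19 and 10.10 (difference 0.02, adjusted p = 0.986). KLF10 had 9.85 and 9.80 (difference 0.02, adjusted p = 0.989) and KLF13 had 7.15 and 7.04 (difference 0.13, adjusted p = 0.855). For KLF3, KLF4 and KLF10 both BB94 arrays lay within the range of the controls, and for KLF13 replicate 1 lay just above it.

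PD325901 was set against BB94 directly, since a call with one inhibitor and none with the other does not show that they differ. KLF3 was higher and KLF6 lower under PD325901, and 6 members were not called. Over all genes this comparison called 31.2%, with 21% higher and 10.2% lower, so 2 of 8 members lie near that share. The median difference was 0.08 over the members and 0.11 over all genes. At an unadjusted p under 0.05 there were 4 members.

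For KLF3 the PD325901 arrays, at 9.47 to 9.63, all lay above the BB94 arrays, at 9.03 and 9.13. The difference was 0.49 (SE 0.14, 1.40-fold, limma adjusted p = 0.0245), and it lost its call in 7 of 18 alternatives (adjusted p 0.00352 to 0.404). These included leaving out BB94 replicate 1 (0.0746) or 2 (0.154) or PD325901 replicate 1 (0.0655) or 3 (0.0746), and centred arrays, where the difference was 0.16 (0.404). For KLF6 the PD325901 arrays, at 11.17 to 11.50, lay below the BB94 arrays, at 11.82 and 11.86. That difference was -0.48 (SE 0.13, 1.39-fold lower, adjusted p = 0.0165). It lost its call without BB94 replicate 1 (0.0947) or 2 (0.0767) or PD325901 replicate 1 (0.0596) and with the mean of its probe sets (-0.21, 0.151), within 0.00153 to 0.151 over 18 alternatives, and with centred arrays it was -0.81.

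KLF5 was not called between the inhibitors, at 6.26, 6.66 and 6.32 under PD325901 and 5.89 and 6.16 under BB94, with 4 of these 5 values below background. The fitted difference was 0.39 (95% interval 0.05 to 0.72, limma adjusted p = 0.0768), and with array weights it was called (adjusted p = 0.0222, within 0.0222 to 0.784 over the alternatives). KLF2 was lower on all PD325901 arrays, at 7.44 to 7.91, than on the BB94 arrays, at 8.04 and 8.50. Its difference of -0.58 (95% interval -1.10 to -0.07) had an adjusted p of 0.0861 and was called in 6 of 18 alternatives, over which the adjusted p ran from 0.0124 to 0.472. Among these 6, leaving out control replicate 4 gave 0.032 and centred arrays gave -0.91 (0.0124). KLF4, KLF10, KLF11 and KLF13 had differences of 0.11, -0.22, 0.18 and 0.05 (adjusted p = 0.596, 0.31, 0.315 and 0.843). With centred arrays KLF10 was called lower (-0.54, adjusted p = 0.015).

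**Figure D3:**
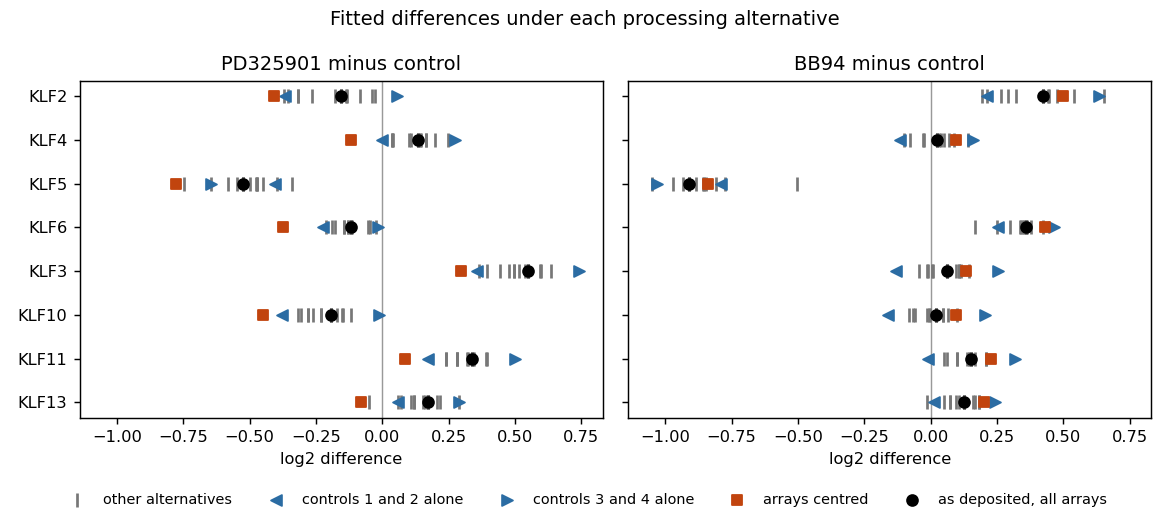
Fitted log2 differences (x axis) of the 8 genes against control under each processing alternative, for PD325901 (left panel) and BB94 (right panel), with black circles for the values as deposited, red squares for arrays centred on their median over genes, blue triangles for either pair of controls used alone and grey ticks for the rest. KLF5 stays below 0 throughout in both panels, KLF3 and KLF11 stay above 0 for PD325901, and the centred arrays give the lowest PD325901 value of every gene.

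The remaining probe sets of the members gave a mixed picture. Of the 24 probe sets, 11 lay above background on all arrays and 9 on none, with 5 probe sets each for KLF3 and KLF6. In PD325901 against control 6 of 24 were called, where 29.4% of all 49293 probe sets were, and of the 16 probe sets that do not stand for a gene 3 were called. Those were 2 of KLF3 (1.44-fold and 1.53-fold higher) and 1 of KLF5 (1.31-fold lower), all below background on every array, so that these fitted values carry no usable level. The other KLF3 probe set that lay above background on all arrays did not follow. It had 7.67, 7.89 and 7.95 on the PD325901 arrays, against 7.63, 8.13, 8.17 and 7.88 in control (difference -0.12, limma adjusted p = 0.598).

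For KLF4 a second probe set above background had 8.34, 8.63 and 8.56 under PD325901, against 8.33, 8.30, 8.14 and 7.85 in control. Its difference of 0.36 (limma adjusted p = 0.0657) was not called, although every treated array lay above every control. The second KLF10 probe set had a difference of -0.27 (adjusted p = 0.184), in the direction of the first. In BB94 against control 1 of 24 was called, that of KLF5 already described, where 1.5% of all probe sets were. The other 2 probe sets of KLF5 had BB94 differences of -0.37 and -0.23 (adjusted p = 0.256 and 0.596). A second KLF6 probe set above background had 10.83 and 10.97 with BB94, against 10.43, 10.61, 10.73 and 11.00 in control. These groups overlapped (difference 0.21, limma adjusted p = 0.735), and here control replicates 3 and 4 were the higher pair. Between the inhibitors this KLF6 probe set differed by -0.31 (adjusted p = 0.22) and was not called. No probe set of a member was called in the direction opposite to its gene.

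**Figure D4:**
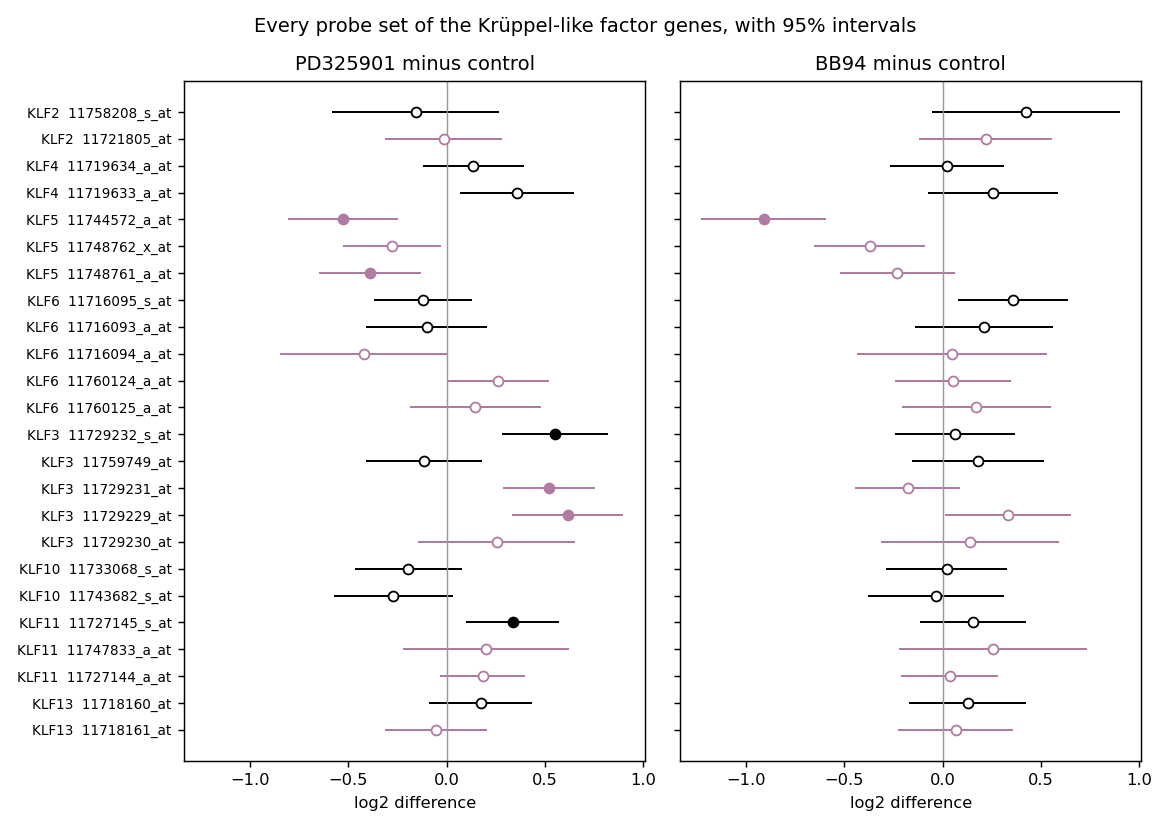
Log2 differences (x axis) with 95% intervals of all 24 probe sets of the Krüppel-like factor genes, for PD325901 minus control (left panel) and BB94 minus control (right panel), with the probe set that stands for each gene first, filled points for an adjusted p under 0.05, black for probe sets above background on all arrays and purple for the rest. The second KLF3 probe set from the top lies at -0.12, apart from the 3 called KLF3 probe sets at 0.52 to 0.62, and for BB94 only the first KLF5 probe set is filled.

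The rest of the family was read as a comparison list of 10 genes, of which 9 were measured. KLF7 and KLF9 rose with both inhibitors and KLF16 fell with PD325901, while KLF12 was not called and KLF1, KLF8, KLF14, KLF15 and KLF17 lay below background on every array. Medians of the list were 0.06 for PD325901 and 0.19 for BB94, against 0.08 and -0.02 over all genes. KLF9, a glucocorticoid-responsive member of the SIN3-recruiting group, had 10.84, 10.90 and 10.90 on the PD325901 arrays, 11.40 and 11.22 on the BB94 arrays and 10.20, 10.08, 9.67 and 9.55 in control. Every treated array lay above every control, 2.01-fold higher on average with PD325901 (limma adjusted p = 3.4e-04) and 2.71-fold with BB94 (adjusted p = 0.00219). Both calls held in all 20 alternatives, but with the mean of its probe sets the log2 differences were 0.42 with PD325901 and 0.60 with BB94, against 1.01 and 1.44 for the probe set shown.

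KLF7 had 10.18, 10.43 and 10.28 under PD325901, 10.16 and 10.06 under BB94 and 9.25, 9.25, 9.34 and 9.01 in control. It was 2.12-fold higher with PD325901 (limma adjusted p = 1.1e-05) and 1.86-fold higher with BB94 (adjusted p = 0.00299), again without overlap. With the mean of its probe sets the PD325901 log2 difference was 0.55, against 1.08 for the probe set shown, and was called. The BB94 call of KLF7 was lost without BB94 replicate 1 (adjusted p = 0.0523, within 0.00102 to 0.0523 over 20 alternatives). Between the inhibitors neither KLF7 (difference 0.19, adjusted p = 0.283) nor KLF9 (-0.43, adjusted p = 0.0991) was called. KLF9 was called lower under PD325901 than under BB94 in 5 of 18 alternatives, among them without control replicate 1 (adjusted p = 0.0406, within 0.00546 to 0.381). KLF16 was 1.31-fold lower with PD325901 (log2 -0.39, or -0.65 with centred arrays, adjusted p = 0.00694) and differed by -0.10 with BB94 (adjusted p = 0.86).

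**Figure D5:**
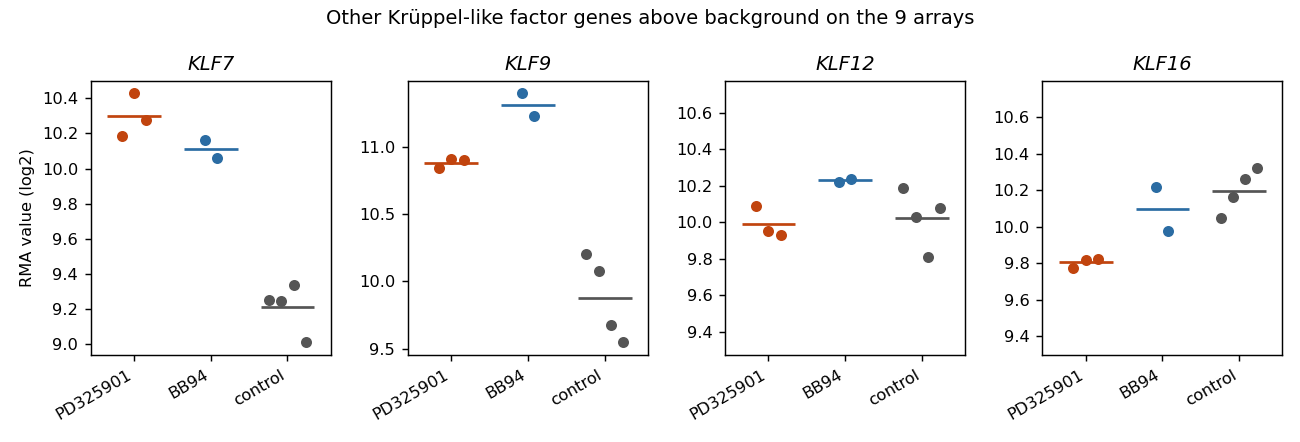
RMA values (log2, y axis) of the 4 other Krüppel-like factor genes above background on all arrays, with PD325901 left (3 arrays), BB94 in the middle (2) and control right (4), bars at the group means and a separate range in each panel. KLF7 and KLF9 stand above all 4 controls on all 5 inhibitor arrays, KLF16 stands below all controls on the PD325901 arrays, and the KLF12 groups lie close together.

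Genes that act on or with the family were read from lists, whose counts stand beside 35.1% of all genes called with PD325901 (22.8% higher and 12.3% lower) and 1.58% with BB94. With lists this small the counts are descriptions, and nothing is read from them as particular to a list. The median difference over all genes was 0.08 with PD325901 and -0.02 with BB94. Of the ERK5 branch, the kinase cascade known to induce KLF2 and KLF4, 7 of 8 genes were measured. With PD325901 1 rose and 1 fell, with a median of -0.12, beside 0.08 over all genes. MAP2K5, the kinase that activates ERK5, had 8.79, 8.84 and 8.71 under PD325901, against 7.62, 7.85, 8.19 and 8.19 in control, and rose 1.76-fold (limma adjusted p = 8.7e-04). With the mean of its probe sets the log2 difference was 0.28, against 0.82 for the probe set shown, and was called. MAPK7, which encodes ERK5, differed by -0.12 (adjusted p = 0.524). MEF2D differed by -0.25 (adjusted p = 0.0215) and lost its call without any single PD325901 array (adjusted p 0.0619 to 0.0773) or without control replicate 2 (0.0609) or 3 (0.0516), within 4.5e-04 to 0.107 over 20 alternatives. With BB94 1 gene of the branch fell and none rose, with a median of -0.01. MAP3K2, a kinase above MAP2K5, had 9.42 and 9.36, against 10.47, 10.46, 10.53 and 10.66 in control, and fell 2.21-fold (adjusted p = 0.00179). It was not called with the mean of its probe sets (-0.37, adjusted p = 0.0954, within 4.1e-04 to 0.0954). MAPK7 differed by 0.33 with BB94 (adjusted p = 0.441).

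Of the 9 Sp factors, relatives that bind the same GC boxes, 1 rose and 1 fell with PD325901 (median -0.07, beside 0.08 over all genes) and none was called with BB94 (median -0.09, beside -0.02, with 0 at an unadjusted p under 0.05). SP6 differed by 0.44 (limma adjusted p = 0.00211) and SP3 by -0.50 (adjusted p = 0.00368). Neither was called with the mean of its probe sets (SP6 0.13, adjusted p = 0.437, and SP3 -0.06, adjusted p = 0.761, each the highest over 20 alternatives that began at 3.3e-04 and 1.1e-04), and SP6 was also not called with centred arrays (0.19, adjusted p = 0.139). Of 9 coregulators of the family 3 rose with PD325901 and none fell (median 0.23, beside 0.08 over all genes, of which 22.8% were called higher), while none was called with BB94 (median 0.04, beside -0.02, with 0 at an unadjusted p under 0.05). The acetyltransferase gene KAT2B rose 1.65-fold (adjusted p = 0.00693), the corepressor gene SIN3B 1.47-fold (0.00714) and the coactivator gene CREBBP 1.28-fold (0.0395). KAT2B lost its call with centred arrays (0.0515), SIN3B with the mean of its probe sets (0.0681), and CREBBP in 11 of 20 alternatives, including the omission of any single inhibitor array or of control replicate 3 or 4 (0.0524 to 0.146). The ranges over the alternatives were 3.6e-05 to 0.0515, 0.00151 to 0.0681 and 0.00333 to 0.528 in that order of genes.

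Of 6 ubiquitin ligases reported to act on members, 2 rose and 1 fell with PD325901 (median -0.10, beside 0.08 over all genes, of which 35.1% were called), and none was called with BB94 (median 0.09, beside -0.02, with 2 at an unadjusted p under 0.05). SMURF2 fell 1.60-fold (log2 -0.68, or -1.16 with the mean of its probe sets, limma adjusted p = 1.3e-04). BTRC rose 1.34-fold (adjusted p = 0.00501), but not with centred arrays (0.217) or the mean of its probe sets (0.221), within 3.7e-04 to 0.221. WWP1, a ligase for KLF2 and KLF5 proteins, differed by 0.35 (adjusted p = 0.0317). It lost that call in 8 of 20 alternatives, including the omission of PD325901 replicate 1 (0.13) or 2 (0.101) or of control replicate 2 (0.051), 3 (0.0791) or 4 (0.0728), within 0.00309 to 0.515.

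Among 18 genes reported as targets of members, 4 rose and 7 fell with PD325901 (median -0.01, beside 0.08 over all genes, of which 22.8% were called higher and 12.3% lower). With BB94 0 rose and 2 fell (median -0.10, beside -0.02, where 1.58% of all genes were called). CCND1, which encodes cyclin D1, had 9.58, 9.31 and 9.05 under PD325901, against 12.45, 12.53, 12.79 and 12.65 in control, and fell 9.78-fold (limma adjusted p = 3.6e-08). CDKN1A, a reported target of KLF4 and KLF6, had 11.30, 11.25 and 11.08, against 11.72, 11.87, 12.01 and 12.09 in control, and fell 1.64-fold (adjusted p = 4.4e-04). LGALS3, the galectin-3 gene, rose 1.72-fold (adjusted p = 6.1e-05). S1PR1, a KLF2 target in lymphocytes and endothelium, rose at least 1.18-fold from control values below background (adjusted p = 0.0029). Of its PD325901 arrays 1 also lay below background. THBD, also on this list of reported targets and above background on all arrays, fell 1.53-fold (adjusted p = 5.9e-05). PDGFA fell 1.56-fold (limma adjusted p = 1.0e-04), ENG 1.37-fold (0.022) and TGFBR1 1.33-fold (0.00767). TNFAIP2 rose 1.42-fold (limma adjusted p = 0.00111). These genes and THBD were not followed over all the alternatives. With BB94 CCND1 differed by -0.15 (adjusted p = 0.845) and CDKN1A by 0.03 (adjusted p = 0.981). PLAU, the urokinase gene and a reported KLF6 target, fell 1.54-fold with BB94 (adjusted p = 0.00642), a call lost without BB94 replicate 2 (adjusted p = 0.141, within 7.5e-04 to 0.141). PLAU also fell with PD325901, 1.23-fold (limma adjusted p = 0.0119), a call kept in 19 of 20 alternatives. FGFBP1, below background on every array, was counted as called higher with PD325901 (adjusted p = 0.0389) and lower with BB94 (adjusted p = 0.045). It kept those calls in 4 and 7 of 19 alternatives, with adjusted p from 0.00298 to 0.864 and from 0.0175 to 0.29. The BB94 call was lost without BB94 replicate 1 (0.29) or 2 (0.273), control replicate 2 (0.0936) or 3 (0.0824) or any single PD325901 array (0.0764 to 0.083). The PD325901 call was lost without any single PD325901 or BB94 array (0.0532 to 0.164) and without control replicate 2 (0.0914), 3 (0.0811) or 4 (0.0828).

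The genes with patterns most like each member over the 9 arrays were listed by Pearson correlation among genes spanning at least 1 log2 unit. Those listed are the highest of 3478 or 3479 correlations per member, each over only 9 arrays. How high such top values run among unrelated genes was not tested. The arrays fall into treatment groups, so these values describe shared group levels as well as shared scatter. KLF3 was closest to MAN1A1, SDHAF4 and RHOBTB3 (r = 0.995, 0.989 and 0.989). KLF11 was closest to PDE6D, RAB11FIP1 and GBE1 (0.98 each), and KLF5 to ANXA10, MAP3K5 and WNK3 (0.96, 0.94 and 0.93). KLF10 was closest to PDIA4, NDFIP2 and MANSC1 (0.98, 0.96 and 0.96) and KLF4 to TNRC18, ARHGAP17 and DAPK1 (0.96, 0.95 and 0.94). Lower values were found for KLF6 with TNPO2, B3GNT5 and SNORA65 (0.88, 0.87 and 0.87), for KLF13 with SNORA49, TTLL3 and TENT5D (0.90, 0.87 and 0.86) and for KLF2 with PTPN9, SKIL and DAW1 (0.82, 0.77 and 0.75).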

How the data were processed

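The authors deposited 1 log2 value per probe set and array, made by RMA (affy), as the series design text states. RMA removes background, applies quantile normalization and summarises probes. The sources used here did not give its version. Medians over genes still differed between arrays. They were 7.86, 7.79 and 7.77 on the PD325901 arrays, 7.58 and 7.39 on the BB94 arrays and 7.58, 7.50, 7.61 and 7.53 in control. Every PD325901 array thus had a higher median over genes than any other array, an offset that centring removes. Its cause was not tested. Values were used as deposited. The table held 49395 probe sets. The 102 control probe sets and the 1832 with several symbols were not used for genes, nor were 2473 with no listed gene. Symbols came from the platform annotation, of which 44961 of 44988 matched RefSeq (GRCh38.p14) by gene identifier and 27 kept the annotation's own symbol. For 11734 of 18132 genes the brightest of several probe sets was taken. No pair of arrays was equal throughout (0 pairs). Array values carry no read depth, so the number of arrays limits the precision.

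Tests used limma 3.58.1 under R 4.3.3 (lmFit and eBayes, 1 coefficient per group, all 9 arrays, 6 residual degrees of freedom, two-sided). Benjamini-Hochberg adjustment ran over all genes, and every adjusted p printed comes from this fit or a named alternative. The script was tested on simulated data. Alternatives were each gene's mean over its probe sets, no collapse of probe sets, a filter at a mean of 6, trend and robust priors, array weights, centring on the array median over genes, cyclic loess, only the 2 groups compared, the replicate number as a block, either pair of controls alone and each array left out in turn. A value below background on any array of the dimmer group gives a bound on the group means, which holds no sampling error. Replicate numbers recur in the titles, and the main fit did not take them as pairs. Deviations of arrays with the same number correlated at -0.186 to 0.122. With so few arrays per group these correlations cannot decide whether the cultures were paired. The members, lists and alternatives were chosen with earlier results of these data known. All 8 members were described, with up to 4 called genes per list by size of change plus CCND1, CDKN1A, MAPK7 and KLF9. THBD, PDGFA, ENG, TGFBR1 and TNFAIP2 were added outside that rule. The 3 genes of closest pattern per member were also listed.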

Additional observations from a re-analysis of the deposited data

How the results depend on the processing

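Over 24 results for single members and 464 alternatives, 394 kept their direction and side of the threshold, 25 lost a call, 14 gained one and 31 turned direction, of which 0 belonged to a called result. The cause of a lost call was not tested. The replicate block took cultures with the same number as belonging together, which the labels neither state nor exclude. It gave 0 called members and 161 called genes for BB94. Its limma adjusted p values were 0.0596 for KLF5 under BB94 and 0.0742 for KLF11 under PD325901. Called genes numbered 6365 for PD325901 (14480 with all probe sets) and 5652 for PD325901 against BB94 (12727 with all probe sets). For BB94 the 286 called genes became 737 with all probe sets, 469 with array weights, 140 with only the 2 groups compared and 1633 against control replicates 3 and 4 alone, and 62 to 367 with arrays left out in turn. Called members numbered 3 for BB94 against control replicates 3 and 4 alone and 0 to 1 with arrays left out. For PD325901 against BB94 they numbered 0 with the mean of probe sets, 4 with array weights and 0 to 3 with arrays left out. Centring turned the share of PD325901 calls that were higher to 31.7% (2353 higher and 5076 lower), against 65.1% as deposited. That share was 45.3% against 31.1% for BB94 and 28.4% against 67.3% for PD325901 against BB94.

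Turned directions all belonged to differences that were not called. Centring gave -0.117 for KLF4 and -0.0799 for KLF13 under PD325901, and -0.213 for KLF4, -0.142 for KLF11, -0.279 for KLF13 and -0.139 for KLF7 between the inhibitors. Cyclic loess gave -0.0514 for KLF13 under PD325901, and -0.00132 for KLF4 and -0.235 for KLF13 between the inhibitors. The mean of probe sets gave -0.00605 for KLF10 under BB94, and -0.036 for KLF13 and -0.257 for KLF7 between the inhibitors. Under BB94, array weights gave -0.0146 for KLF3, -0.0298 for KLF4 and -0.0602 for KLF10, and the replicate block gave -0.045 for KLF3, -0.0989 for KLF4, -0.081 for KLF10 and -0.0152 for KLF13. Control replicates 1 and 2 alone gave -0.13 for KLF3, -0.114 for KLF4, -0.162 for KLF10 and -0.0109 for KLF11 under BB94 and -0.00108 for KLF4 under PD325901. Control replicates 3 and 4 alone gave 0.0539 for KLF2 under PD325901 and -0.0974 for CDKN1A under BB94. With arrays left out in turn, the BB94 differences ran from -0.0102 to 0.146 for KLF3, -0.0776 to 0.0874 for KLF4, -0.0656 to 0.0981 for KLF10 and -0.0784 to 0.138 for CDKN1A, and the difference between the inhibitors ran from -0.0549 to 0.161 for KLF13. Signal near background limits KLF5, and 2 BB94 arrays limit every BB94 result.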
